A study of Gossypium hirsutum with 18 samples.

Results

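The response of cotton roots to the root-knot nematode (RKN) was compared between the genotypes WMJJ and NemX, gene by gene, as the difference of their responses. The response of a genotype is the log2 fold change of its infested roots (rkn) over its control roots (ctl), and the difference is the WMJJ response minus the NemX response, so that a positive value means a more upward response in WMJJ. The comparison rests on 12 of the 18 libraries of the series, 3 in each of WMJJ_rkn, WMJJ_ctl, NemX_rkn and NemX_ctl, and on 46813 of the 54508 genes of the table, those whose values averaged 1 or more across the 18 libraries. The members were thus fixed by genotype, treatment and mean level. The mean includes the infested libraries, so a low gene can pass through a high level in part of the groups.

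WMJJ is Wild Mexico Jack Jones, a cotton (Gossypium hirsutum) that the labels call moderately tolerant to RKN, and NemX is Acala NemX, labelled RKN-resistant. Acala SJ-2 (SJ2), labelled RKN-susceptible, supplied the other 6 libraries, 3 infested and 3 control, whose values are no part of the difference but which share in the estimate of the spread of the same genes. Seedlings of 12 days received 5000 J2 juveniles per plant or water without nematodes, and roots were taken from plants of 23 days, so every library is whole-root RNA at a single time. Each genotype differs from the others throughout its genome, so a difference between their responses cannot be tied to any resistance locus by these groups.

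Root-knot nematodes are sedentary parasites of plant roots. Their juveniles enter near the root tip, move to the vascular cylinder and turn cells there into enlarged, multinucleate feeding cells, around which the root swells into a gall. Plant resistance to them often rests on intracellular receptors of the NBS-LRR family, which detect parasite activity and set off defence responses that can include the death of the attacked cells. In whole roots, a gene's level can move because expression per cell moved or because the share of cells that express it moved, and the 2 cannot be told apart.

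Values are the authors' normalized values, close to CPM in scale, written below without a unit. The values sum to between 852215 and 1096547 per library. The median SD of replicates was 0.244 to 0.266 on the log2 scale, and replicate libraries correlated at 0.937 to 0.965 across genes. Depth cannot be read from these values, and no interval for counting error is given. Cotton is an allotetraploid with near-identical gene copies in its A and D subgenomes. Reads were assigned by pseudo-alignment, so the value of any single copy may hold reads of its partner. No functional annotation of these gene identifiers was used here except for a pair of resistance gene homologs, so genes are given by identifier, chromosome and level, and root markers were not checked.

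The response to RKN differed between WMJJ and NemX for 684 genes, 1.46% of those tested. It was higher in WMJJ for 490 genes (1.05%) and lower in WMJJ for 194 (0.414%). These calls needed an adjusted p below 0.01 (limma, Benjamini-Hochberg over all 46813 genes) and an absolute log2 difference above 1. The median difference over all tested genes was 0.02. Among the genes higher in WMJJ the difference lay between 1.00 and 5.33 (median 1.70) and exceeded 2 for 169 genes and 4 for 7. Among those lower in WMJJ it reached −3.69, with a median of −1.76, and 67 genes lay beyond −2. An unadjusted p below 0.05 was reached by 7546 genes. Scaling all libraries to equal totals gave 382 higher and 246 lower, so 60.8% higher in place of 71.6%, and moved the median of all genes to −0.05.

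The number of calls depended on single libraries. It was 296 without WMJJ_rkn replicate 1, 320 without NemX_rkn replicate 1, 323 without WMJJ_ctl replicate 1, 382 without NemX_ctl replicate 2, 390 without NemX_rkn replicate 3, 404 without WMJJ_rkn replicate 3 and 441 without NemX_ctl replicate 3. Leaving out WMJJ_rkn replicate 2 raised it to 878, of which 353 were lower in WMJJ. In most of the called genes this library lay nearest to the controls. It was the lowest WMJJ_rkn library for 292 of the 490 genes higher in WMJJ (59.6%, against 36.8% of all tested genes without ties) and the highest for 130 of the 194 lower in WMJJ (67%, against 34.7%). Among genes called upregulated in SJ2 it was the lowest for 34.2%, against 40.8% for replicate 3, and among those called downregulated in SJ2 it was the highest for 39.5%. In NemX, NemX_rkn replicate 1 was the lowest NemX_rkn library for 249 of 487 untied genes higher in WMJJ (51.1%, against 33.2% of all tested genes) and the highest for 99 of 192 lower in WMJJ (51.6%, against 36.2%). The called genes were chosen on these same libraries, so these shares are a description. A fit, chosen after seeing the data, with an added term that marks, in every group, the replicate with the most genes above 0 (NemX_rkn replicate 1 and replicate 3 of the other groups) gave 1210 calls, 795 higher and 415 lower in WMJJ, the 684 among them. The other 2 libraries of each group alone gave 335 (219 and 116), of which 275 were among the 684. A core of 255 genes, 195 higher and 60 lower in WMJJ, was called whichever of the 12 libraries was left out, with median differences of 1.94 and −1.91.

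**Figure D1:**
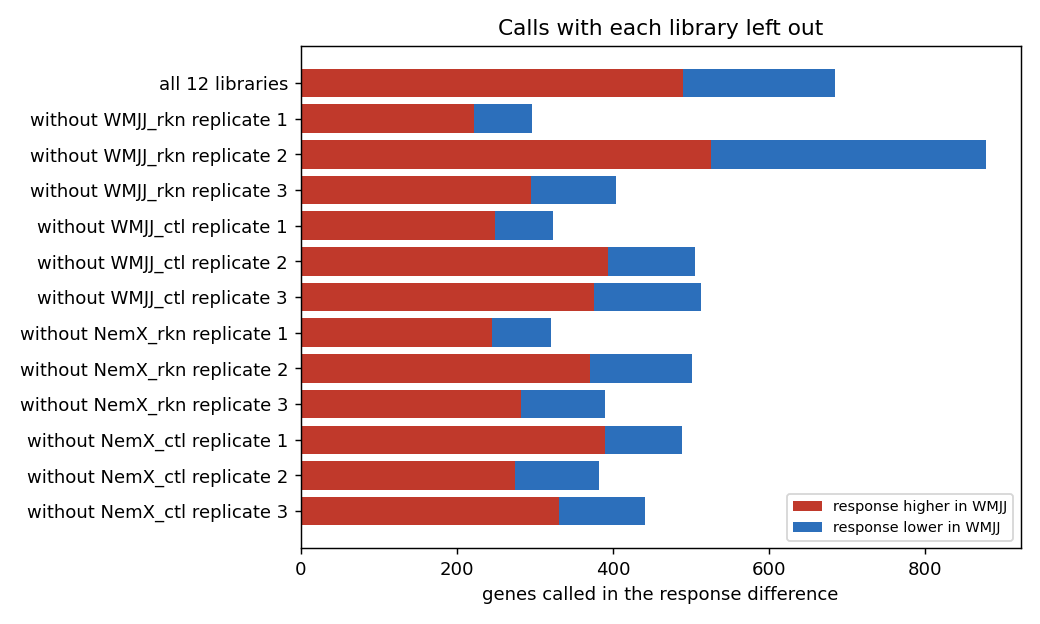
Number of genes called in the difference of responses between WMJJ and NemX with all 12 libraries (top bar) and after omission of a single library, divided into genes whose response was higher (red) and lower (blue) in WMJJ. The bars run from 296 genes without WMJJ_rkn replicate 1 to 878 without WMJJ_rkn replicate 2, against 684 with all libraries.

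Most of the difference lay on the WMJJ side. Of the 490 genes higher in WMJJ, 450 were called upregulated in WMJJ_rkn against WMJJ_ctl, where 5.6% of all tested genes were, and 24 were called upregulated in NemX, where 0.568% were. The median response of the 490 genes was 1.89 in WMJJ and 0.10 in NemX. Of the 194 genes lower in WMJJ, 181 were called downregulated in WMJJ, against 4.84% of all tested genes, and 25 in NemX, against 0.666%. Their median responses were −2.12 in WMJJ and −0.43 in NemX. The responses share their libraries with the difference that chose these genes, so these counts describe the genes and test nothing further.

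By class, the 490 genes divided into 425 called up in WMJJ alone, 24 called up in both genotypes with the larger increase in WMJJ, 35 called in neither, 5 called down in NemX alone, and Gohir.D07G183000, which was up in WMJJ and down in NemX. The 194 genes divided into 156 called down in WMJJ alone, 25 called down in both, 7 called up in NemX alone and 6 called in neither. A missing NemX call did not mean that the libraries stood still. Of the 460 genes higher in WMJJ without a NemX call, 120 had an upward and 60 a downward NemX response at an unadjusted p below 0.05, where 8.43% and 8.94% of all tested genes did. Of the 162 genes lower in WMJJ without one, 72 had a downward and 17 an upward NemX response at that level. The number of NemX calls also depended on single libraries, with 578 in total (1.23% of tested genes) but 286 and 289 without NemX_ctl replicates 1 and 2 and 327, 338 and 252 without NemX_rkn replicates 1, 2 and 3.

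**Figure D2:**
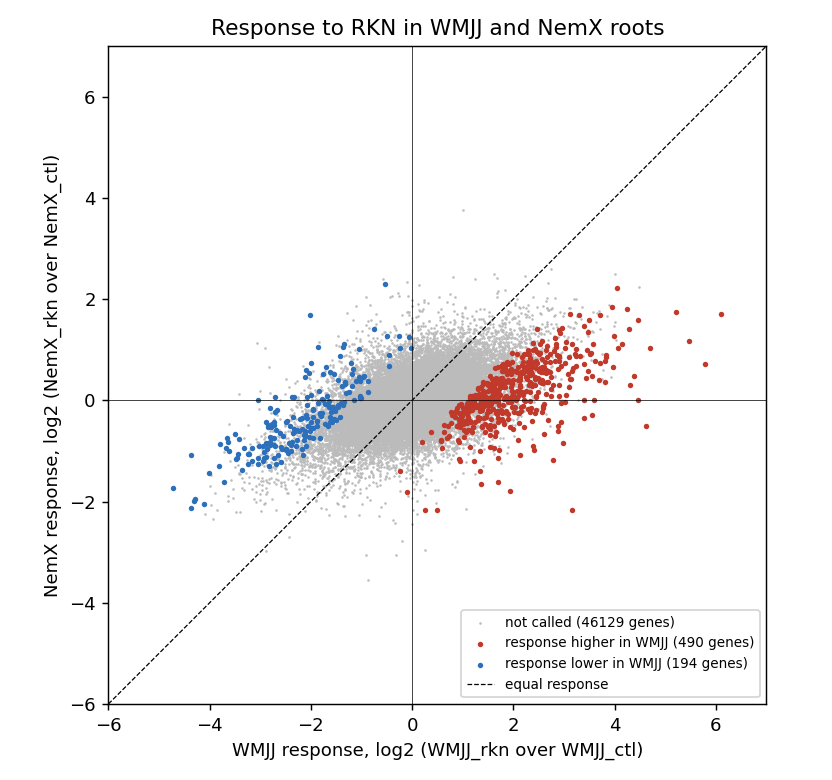
Log2 fold change of infested over control roots in WMJJ (horizontal) and NemX (vertical) for the 46813 tested genes, with the 490 genes whose response was higher in WMJJ in red, the 194 lower in WMJJ in blue and the dashed line marking equal responses. The red genes lie mainly to the right of 0 near the horizontal axis (medians 1.89 in WMJJ and 0.10 in NemX), and the blue genes to the left (medians −2.12 in WMJJ and −0.43 in NemX).

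The per-library values come from the libraries that chose these genes, so the orders given here are in part built in and test nothing further. In 484 of the 490 genes all 3 WMJJ_rkn libraries lay above all 3 WMJJ_ctl libraries, an order found in 19.1% of all tested genes. In NemX the infested libraries lay wholly above the controls in 155 of the 490 genes (10.2% of all genes) and wholly below them in 83 (11.9%). In 189 of the 194 genes lower in WMJJ all WMJJ_rkn libraries lay below all WMJJ_ctl libraries (17.5% of all genes), and in 105 of the 194 the NemX_rkn libraries lay wholly below NemX_ctl.

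In group levels, the genes higher in WMJJ had a median of 44.2 in WMJJ_rkn and 10.8 in WMJJ_ctl, against 24.0 in NemX_rkn and 18.9 in NemX_ctl. The uninfested WMJJ roots thus held the lowest median and the infested WMJJ roots the highest of these 4 groups, with both NemX groups between them. Direct comparisons of the genotypes gave 161 of the 490 genes lower in WMJJ_ctl than in NemX_ctl and 2 higher, while 3.74% and 2.09% of all tested genes were lower and higher. In infested roots 199 of the 490 were higher in WMJJ and 4 lower, where 3.45% and 4.96% of all tested genes were. The genes lower in WMJJ had medians of 9.08 in WMJJ_rkn and 44.7 in WMJJ_ctl, against 27.9 in NemX_rkn and 39.8 in NemX_ctl. Of these 194 genes, 22 (11.3%) were higher and 5 (2.58%) lower in WMJJ_ctl than in NemX_ctl, against 2.09% and 3.74% of all tested genes. In infested roots 153 (78.9%) were lower and 3 (1.55%) higher in WMJJ, against 4.96% and 3.45%. The median log2 difference of the control roots was 0.14 for this set, against −0.79 for the 490 genes higher in WMJJ. Single genes of the set lay far apart in controls, such as Gohir.D09G154600 (4.72) and Gohir.A10G079600 (−4.27). These comparisons reuse the libraries that chose the genes and are given as a description.

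**Figure D3:**
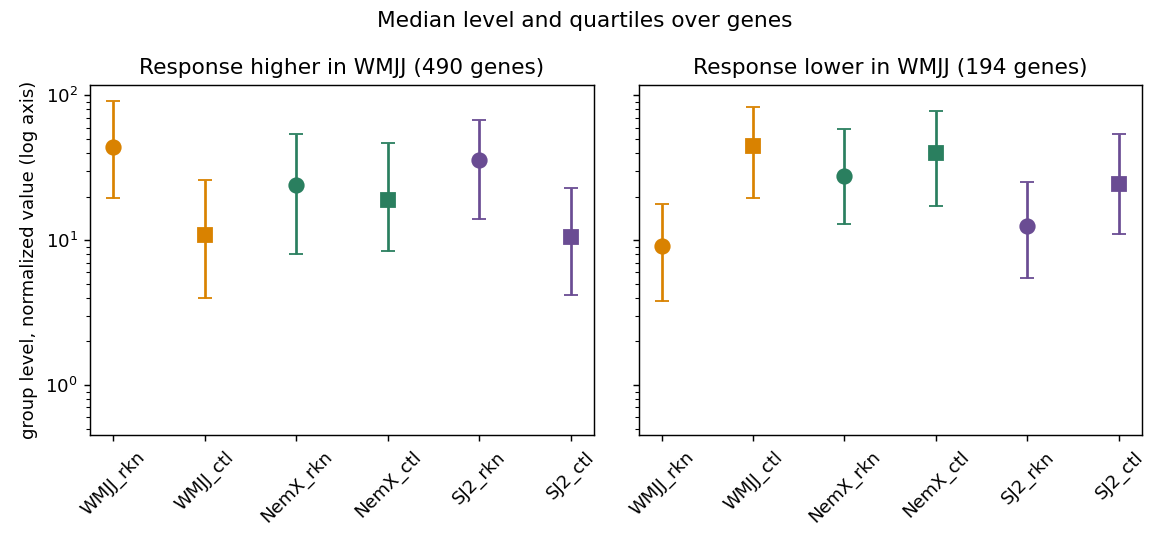
Group level (fitted mean of the log2 values, taken back to the normalized scale, log axis) of the 490 genes higher in WMJJ (left) and the 194 lower in WMJJ (right), as the median over genes with quartiles as bars, circles for infested and squares for control roots. In the left panel WMJJ_rkn (44.2) and WMJJ_ctl (10.8) enclose NemX_rkn (24.0) and NemX_ctl (18.9), and in the right panel WMJJ_rkn (9.08) lies below the other 3 groups of these genotypes, WMJJ_ctl (44.7), NemX_rkn (27.9) and NemX_ctl (39.8).

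Among genes with a called response whose infested and control libraries did not overlap in at least 1 of the 2 genotypes, the 6 with the largest positive difference were on chromosomes A08, A11, D01, A05 and D11. Gohir.A08G108900 was 12.4, 6.19 and 12.7 in the WMJJ_rkn libraries and 0, 2.83 and 0.459 in WMJJ_ctl, against 3.55, 0.76 and 2.57 in NemX_rkn and 9.46, 10.6 and 12.4 in NemX_ctl. The infested libraries were all high in WMJJ and all low in NemX, with no overlap in either genotype, and so stood in opposite order to their controls. Its difference of 5.33 (SE 0.74, adjusted p = 0.000405) was the largest of all. It combined a WMJJ response of 3.16 (SE 0.53, adjusted p = 0.000142) with a NemX response of −2.17 (SE 0.53, adjusted p = 0.0196), which missed the threshold.

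Gohir.A11G112800 was 59.9, 34.7 and 66.2 in WMJJ_rkn and 1.63, 2.13 and 1.18 in WMJJ_ctl, against 6.57, 6.79 and 5.03 in NemX_rkn and 3.89, 9.35 and 18.2 in NemX_ctl. Infested and control libraries were far apart in WMJJ and overlapped in NemX, and the difference was 5.13 (SE 0.64, adjusted p = 0.00017). Gohir.D01G216800 was 251, 119 and 329 in WMJJ_rkn and 1.62, 4.37 and 5.21 in WMJJ_ctl, against 11.9, 16.3 and 13.4 in NemX_rkn and 7.82, 7.07 and 9.79 in NemX_ctl. Its NemX libraries did not overlap either, but lay close together, with a NemX response of 0.72 (SE 0.49, adjusted p = 0.501) beside a WMJJ response of 5.78 and a difference of 5.06 (SE 0.69, adjusted p = 0.000375).

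Gohir.A11G036000 was 50.2, 37.9 and 46 in WMJJ_rkn and 1.3, 1.53 and 1.82 in WMJJ_ctl, against 1.24, 6.48 and 1.02 in NemX_rkn and 1.56, 2.32 and 2.67 in NemX_ctl. In NemX a single infested library, replicate 2, was high and the other 2 lay below all controls. The difference was 4.46 (SE 0.56, adjusted p = 0.000196), the same as the WMJJ response (4.46). Gohir.D11G039600 was 48, 35.7 and 58.6 in WMJJ_rkn and 0.326, 0.656 and 0.761 in WMJJ_ctl, against 2.18, 7.53 and 3.56 in NemX_rkn and 1.31, 1.55 and 1.57 in NemX_ctl. Here the infested libraries lay above the controls in both genotypes, with a NemX response of 1.17 (SE 0.33, adjusted p = 0.0412) that was not called, a WMJJ response of 5.47 and a difference of 4.30 (SE 0.46, adjusted p = 3.58e-05).

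Gohir.A05G316200 was 54.1, 40.4 and 81.4 in WMJJ_rkn and 0, 0.874 and 0.303 in WMJJ_ctl, against 28.9, 41.2 and 36.1 in NemX_rkn and 9.66, 11.4 and 10.3 in NemX_ctl. The infested libraries of the 2 genotypes overlapped and the controls did not, with a WMJJ minus NemX difference of 0.68 on the log2 scale in infested and −3.74 in control roots. The WMJJ response was 6.11, the NemX response 1.70 (SE 0.45, adjusted p = 0.0334), not called, and the difference 4.41 (SE 0.64, adjusted p = 0.000582). All 6 genes kept their calls whichever library was left out.

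**Figure D4:**
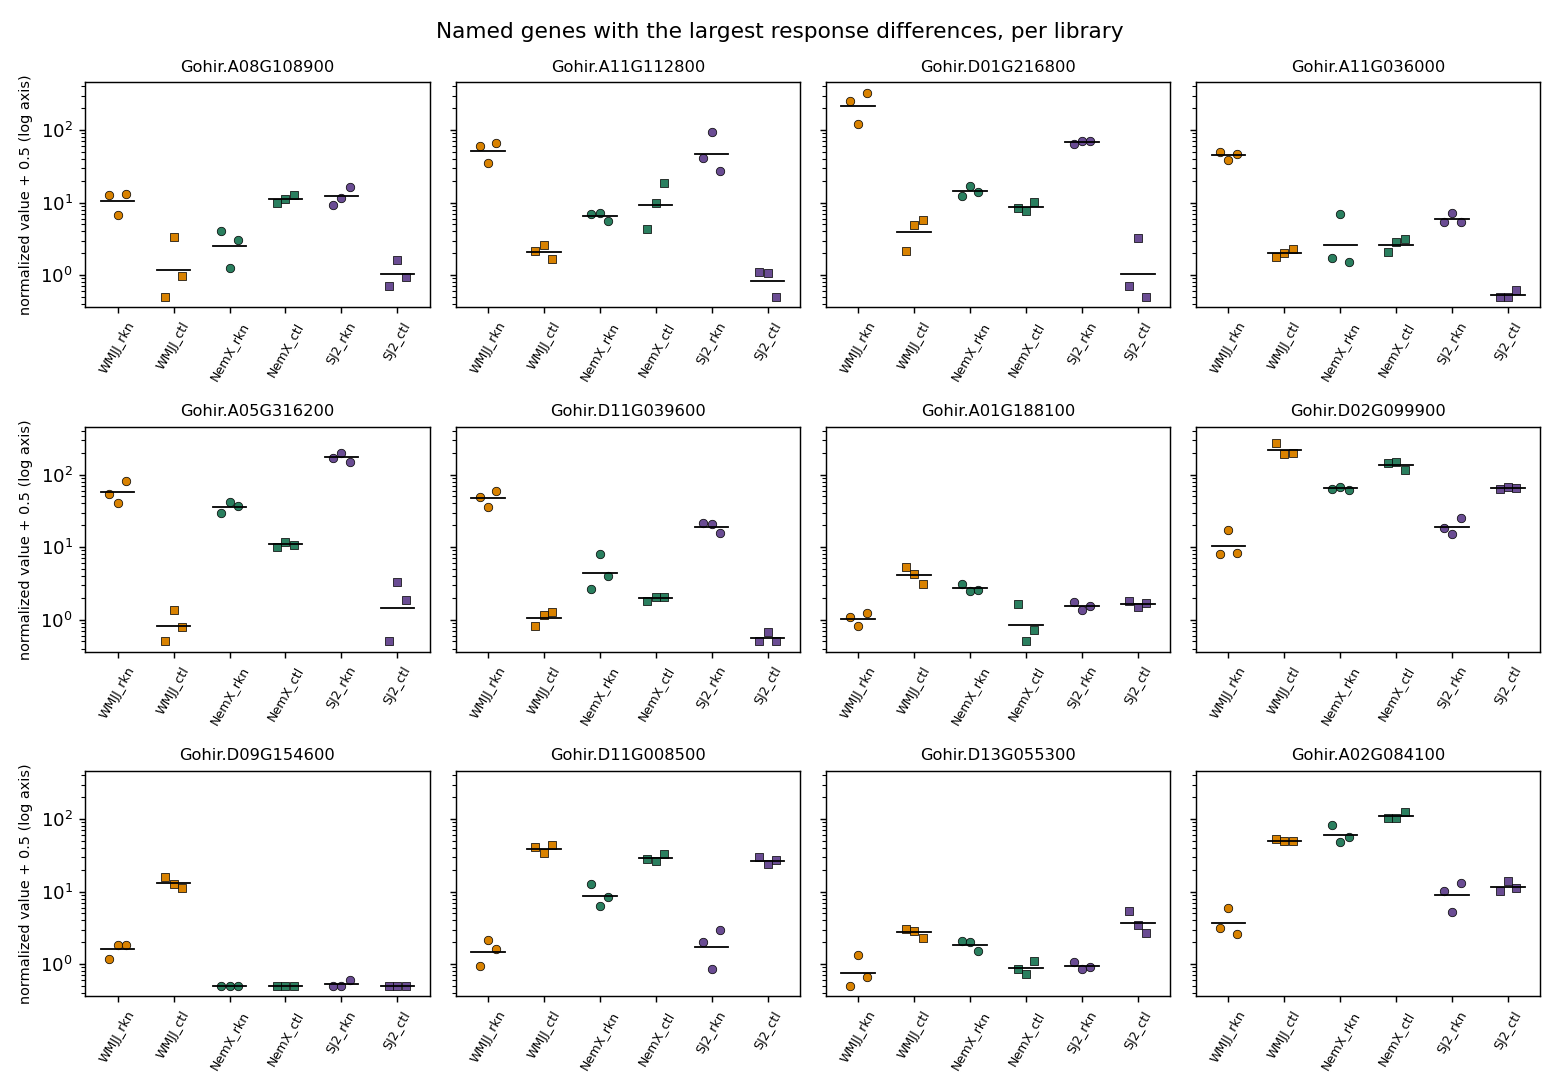
Normalized value plus 0.5 (log axis) of the 6 named genes with the largest positive difference (first 6 panels) and the 6 with the largest negative difference (last 6), in each library of WMJJ (orange), NemX (green) and SJ2 (purple), circles infested and squares control, with a line at the mean of the logs. Gohir.A08G108900 is high in the infested WMJJ libraries (6.19 to 12.7) and low in the infested NemX libraries (0.76 to 3.55), and Gohir.A02G084100 is low in the infested WMJJ libraries (2.07 to 5.52) and high in the infested NemX libraries (47.3 to 81.5).

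The 6 named genes with the largest negative difference were on chromosomes A01, D02, D09, D11, D13 and A02. Gohir.D02G099900 was 7.59, 16.5 and 7.91 in WMJJ_rkn and 270, 189 and 199 in WMJJ_ctl, against 63.7, 67.1 and 60.9 in NemX_rkn and 145, 151 and 117 in NemX_ctl. The gene fell in both genotypes with no overlap of libraries, by 4.37 on the log2 scale in WMJJ and by 1.09 in NemX (adjusted p = 0.00755), and the difference was −3.28 (SE 0.32, adjusted p = 1.62e-05). Gohir.D11G008500 was 0.442, 1.63 and 1.13 in WMJJ_rkn and 40.4, 33.1 and 43.2 in WMJJ_ctl, against 12.2, 5.85 and 7.84 in NemX_rkn and 27.3, 26.3 and 32.2 in NemX_ctl. It too fell in both, by 4.72 in WMJJ and by 1.73 in NemX (adjusted p = 0.00684), with a difference of −2.99 (SE 0.50, adjusted p = 0.00168).

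Gohir.A02G084100 was 2.62, 5.52 and 2.07 in WMJJ_rkn and 52.1, 49.5 and 48.7 in WMJJ_ctl, against 81.5, 47.3 and 56.5 in NemX_rkn and 104, 104 and 126 in NemX_ctl. Infested libraries lay below the controls in both genotypes, but the decrease was called in WMJJ only, at −3.80, beside −0.87 (SE 0.29, adjusted p = 0.0999) in NemX, and the difference was −2.92 (SE 0.42, adjusted p = 0.000469). Gohir.D09G154600 was 0.684, 1.35 and 1.36 in WMJJ_rkn and 15.6, 12.2 and 10.7 in WMJJ_ctl, and was listed at 0 in all 6 NemX libraries. Its difference of −3.05 (SE 0.44, adjusted p = 0.000533) therefore equals the WMJJ decrease.

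Gohir.A01G188100 and Gohir.D13G055300 were low in every group, so their folds on the log2(value + 0.5) scale understate the change. Gohir.A01G188100 was 0.598, 0.322 and 0.716 in WMJJ_rkn and 4.9, 3.76 and 2.62 in WMJJ_ctl, against 2.59, 1.98 and 2.05 in NemX_rkn and 1.16, 0 and 0.211 in NemX_ctl. The WMJJ libraries fell and the NemX libraries lay higher when infested, by 1.68 (SE 0.37, adjusted p = 0.0111), just short of a call, and the difference was −3.69 (SE 0.53, adjusted p = 0.000469). Gohir.D13G055300 was 0, 0.821 and 0.158 in WMJJ_rkn and 2.6, 2.4 and 1.82 in WMJJ_ctl, against 1.56, 1.53 and 1.02 in NemX_rkn and 0.348, 0.242 and 0.607 in NemX_ctl. Its libraries also stood in opposite order in the 2 genotypes, with a difference of −2.92 (SE 0.52, adjusted p = 0.0027), but the adjusted p was 0.0104 without NemX_rkn replicate 1, 0.01 without WMJJ_ctl replicate 1 and 0.0111 without WMJJ_rkn replicate 1. The other 5 genes kept their calls in every such fit.

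The 6 most abundant named genes had differences between −2.23 and 1.60. Among genes higher in WMJJ, the highest mean over the 12 libraries was that of Gohir.D11G026600 (591), which averaged 932 ± 91.2 in WMJJ_rkn and 310 ± 6.12 in WMJJ_ctl, against 558 ± 34.5 in NemX_rkn and 564 ± 39.2 in NemX_ctl (SD, n = 3 each). Its difference was 1.60 (SE 0.20, adjusted p = 0.000148). Gohir.D01G163400 averaged 595 ± 67.6 in WMJJ_rkn and 328 ± 10.1 in WMJJ_ctl, against 492 ± 10.8 in NemX_rkn and 581 ± 8.79 in NemX_ctl (SD, n = 3 each), with a difference of 1.09 (SE 0.18, adjusted p = 0.00186). In both genes WMJJ_ctl was the lowest and WMJJ_rkn the highest of the 4 group means, with both NemX means between them.

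Gohir.D04G027100 averaged 669 ± 92.7 in WMJJ_rkn and 260 ± 11.2 in WMJJ_ctl, against 418 ± 9.18 in NemX_rkn and 489 ± 49.4 in NemX_ctl (SD, n = 3 each), with a difference of 1.57 (SE 0.30, adjusted p = 0.00487). Among genes lower in WMJJ, Gohir.A05G225200 averaged 123 ± 36.4 in WMJJ_rkn and 529 ± 40.1 in WMJJ_ctl, against 413 ± 46.8 in NemX_rkn and 719 ± 136 in NemX_ctl (SD, n = 3 each), with a difference of −1.35 (SE 0.27, adjusted p = 0.00717). Both calls were lost on leaving out any library except NemX_ctl replicate 3 and WMJJ_rkn replicate 2, with adjusted p from 0.0105 to 0.0179 for Gohir.D04G027100 and from 0.0112 to 0.0287 for Gohir.A05G225200.

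Gohir.A02G076500 averaged 78.6 ± 27.9 in WMJJ_rkn and 458 ± 42.3 in WMJJ_ctl, against 282 ± 5.25 in NemX_rkn and 536 ± 67.9 in NemX_ctl (SD, n = 3 each), with a difference of −1.67 (SE 0.26, adjusted p = 0.00104). Gohir.A05G005600 averaged 43.8 ± 22.7 in WMJJ_rkn and 369 ± 53.6 in WMJJ_ctl, against 279 ± 38.9 in NemX_rkn and 534 ± 24 in NemX_ctl (SD, n = 3 each), with a difference of −2.23 (SE 0.34, adjusted p = 0.000898). In these 2 genes the control roots of the genotypes differed by −0.22 and −0.54 on the log2 scale and the infested roots by −1.89 and −2.77, so the infested WMJJ roots were the group that stood low.

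Gohir.D07G183000 was the gene with called responses of opposite sign. It was 36.1, 26.8 and 48.5 in WMJJ_rkn and 14.9, 14.6 and 12.2 in WMJJ_ctl, against 13.1, 18.2 and 10.8 in NemX_rkn and 42.6, 31.3 and 38.1 in NemX_ctl. The infested WMJJ libraries and the control NemX libraries shared the high level, and the other 2 groups the low one. The responses were 1.35 (SE 0.29, adjusted p = 0.00192) in WMJJ and −1.40 (SE 0.29, adjusted p = 0.00795) in NemX, and the difference was 2.75 (SE 0.42, adjusted p = 0.000789), a call kept whichever library was left out.

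The 5 genes called through a decrease in NemX, with no called response in WMJJ, were singled out after their values were seen. Gohir.D09G097301 was 76.1, 71.9 and 71.4 in WMJJ_rkn and 87.8, 84.5 and 84.9 in WMJJ_ctl, against 42.5, 50.3 and 42.5 in NemX_rkn and 112, 111 and 133 in NemX_ctl. The WMJJ response was −0.23 (adjusted p = 0.26), NemX fell by 1.39 on the log2 scale (adjusted p = 2.25e-05), and the difference was 1.16 (SE 0.19, adjusted p = 0.00167). Gohir.D04G027200 was 241, 182 and 250 in WMJJ_rkn and 123, 120 and 108 in WMJJ_ctl, against 55.5, 50.7 and 50.4 in NemX_rkn and 142, 109 and 101 in NemX_ctl. Control levels were alike in the 2 genotypes (log2 difference 0.01), the infested libraries lay above all controls in WMJJ and below all controls in NemX, and the difference was 2.07 (SE 0.22, adjusted p = 3.13e-05). The WMJJ response of 0.92 fell short of a call through the fold threshold alone (adjusted p = 0.000142). Both genes kept their calls whichever library was left out.

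The other 3 were less stable. Gohir.A03G195200 averaged 1.93 ± 0.492 in WMJJ_rkn and 2.14 ± 0.606 in WMJJ_ctl, against 24.1 ± 9.91 in NemX_rkn and 82.9 ± 21.9 in NemX_ctl (SD, n = 3 each), and its difference was 1.70 (SE 0.36, adjusted p = 0.00932). Gohir.D04G103200 averaged 12 ± 6.42 in WMJJ_rkn and 7.43 ± 1.06 in WMJJ_ctl, against 0.713 ± 0.373 in NemX_rkn and 4.81 ± 0.819 in NemX_ctl (SD, n = 3 each), with a difference of 2.66 (SE 0.52, adjusted p = 0.00544). Gohir.D09G225900 averaged 26.3 ± 9.47 in WMJJ_rkn and 22.6 ± 10.7 in WMJJ_ctl, against 2.14 ± 0.529 in NemX_rkn and 11.4 ± 3.04 in NemX_ctl (SD, n = 3 each), with a difference of 2.41 (SE 0.47, adjusted p = 0.00509). All 3 fell in NemX. Leaving out a library ended the call of Gohir.A03G195200 for all but NemX_ctl replicate 1, NemX_rkn replicate 1, WMJJ_ctl replicate 2 and WMJJ_rkn replicate 3 (adjusted p up to 0.0335). It ended that of Gohir.D04G103200 for all but NemX_ctl replicate 3, NemX_rkn replicate 2 and WMJJ_rkn replicate 2 (up to 0.0229), and that of Gohir.D09G225900 for all but NemX_ctl replicate 2, NemX_rkn replicate 2, WMJJ_ctl replicate 3 and WMJJ_rkn replicate 2 (up to 0.0195).

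Some called genes were near absent in NemX. In 5 of the 490 genes higher in WMJJ and 2 of the 194 lower, all 6 NemX libraries lay below 1, as in 344 of the 46813 tested genes. Near absence in NemX is therefore not read as a trait of the called genes. Genes near absent in NemX passed the filter on the mean only through their WMJJ or SJ2 libraries. All 6 WMJJ libraries lay below 1 in 429 tested genes and in 0 called genes. Gohir.A07G043500 was listed at 0 in all 6 NemX libraries and was 8.67, 9.56 and 12.5 in WMJJ_rkn and 0.325, 0.218 and 1.22 in WMJJ_ctl. Gohir.A01G110600 was 4.2, 3.8 and 5.86 in WMJJ_rkn and 0, 0 and 0.308 in WMJJ_ctl, and did not exceed 0.758 in NemX. Their differences were 3.40 and 2.68 and their WMJJ responses 3.40 and 3.11, on a scale that understates the change of low genes. With Gohir.D09G154600, described above, they kept their calls whichever library was left out. The remaining 4, Gohir.A01G038200, Gohir.A05G152675, Gohir.A07G173466 and Gohir.D07G228700, lost theirs in 9 to 12 of the 12 fits. This group was picked out once its values had been seen.

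The SJ2 values are not part of the difference, but the SJ2 libraries share in the spread and in the filter on the mean that decide which genes were called. Of the 490 genes higher in WMJJ, 350 (71.4%) were called upregulated in SJ2_rkn against SJ2_ctl, where 8.09% of all tested genes were, and 4 (0.816%) downregulated, where 5.92% were. Their median SJ2 response was 1.64, with quartiles of 0.94 and 2.58, against −0.04 over all tested genes. Of the 194 genes lower in WMJJ, 99 (51%) were called downregulated in SJ2 and 5 (2.58%) upregulated. Their median SJ2 response was −1.02, with quartiles of −1.87 and −0.22. The infested SJ2 libraries lay wholly above the controls in 416 of the 490 genes (20.6% of all tested genes) and wholly below them in 128 of the 194 (21.8%). In most of these genes SJ2 thus moved in the direction of WMJJ. With the spread taken from the 12 WMJJ and NemX libraries alone, on the same filtered genes, 665 genes were called, 529 of them among the 684 (77.3%). Of the genes then called higher in WMJJ 74.9% were called up in SJ2, with a median SJ2 response of 1.96, and of those lower in WMJJ 48.4% were called down, with a median of −1.03.

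In levels, the genes higher in WMJJ had a median of 35.9 in SJ2_rkn and 10.6 in SJ2_ctl, near the 44.2 and 10.8 of WMJJ_rkn and WMJJ_ctl. The genes lower in WMJJ had medians of 12.5 in SJ2_rkn and 24.6 in SJ2_ctl, a smaller step than the 9.08 and 44.7 of WMJJ_rkn and WMJJ_ctl. Genes upregulated in WMJJ but not called in the difference, 2173 of them, were also often called upregulated in SJ2 (50.3%), against 72.9% of the 450 genes upregulated in WMJJ and called higher in the difference. For genes downregulated in WMJJ the shares were 40.5% of 2083 not called in the difference and 53% of 181 called lower in it. The sets were not matched. The 2173 genes had a lower median level in WMJJ_rkn (14.8, against 44.2 for the 490 genes) and a smaller median WMJJ response (1.48, against 1.89).

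Of the 195 genes higher in WMJJ whose call outlasted every leave-out, 149 (76.4%) were called upregulated in SJ2, and of the corresponding 60 lower genes 25 (41.7%) downregulated. Of all genes called up in WMJJ 54.1% were called up in SJ2, and of all called down in WMJJ 41.5% were called down in SJ2. The share of the 60 lower genes was thus near that of all genes downregulated in WMJJ. Without WMJJ_rkn replicate 1 the genes higher in WMJJ had a median SJ2 response of 1.91. Over all alternatives run, the share of genes higher in WMJJ that were called up in SJ2 stayed between 63.3% and 78.5%, and the share of lower genes called down between 41.8% and 60.3%. Changed thresholds also changed the SJ2 calls, 6557 in the main fit. There were 7750 at an adjusted p below 0.05, which gave the 63.3%. With no fold threshold there were 9114, and the shares were 78.5% and 60.3%.

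**Figure D5:**
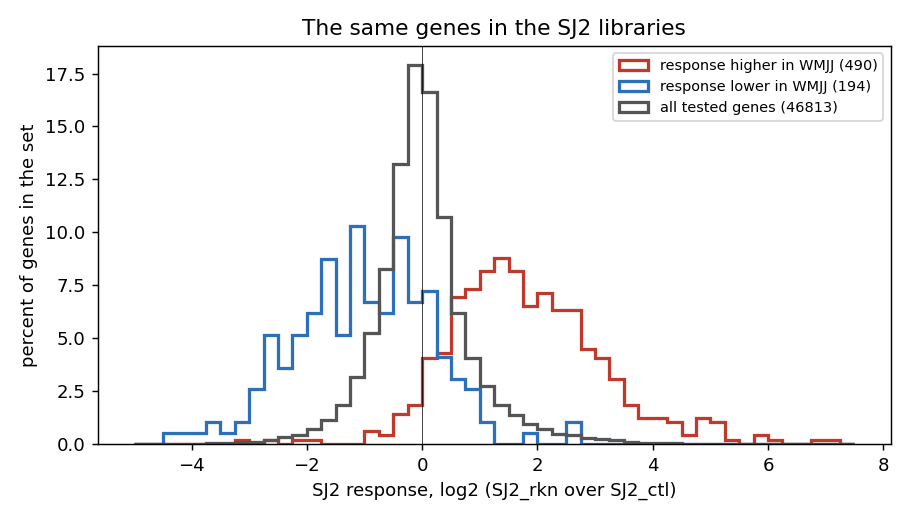
Distribution of the SJ2 response (log2 of SJ2_rkn over SJ2_ctl, steps of 0.25) for the 490 genes whose response was higher in WMJJ than in NemX (red), the 194 lower in WMJJ (blue) and all 46813 tested genes (grey), as percent of the genes in each set. The red curve is shifted right (median 1.64), the blue curve left (median −1.02), and all genes centre near 0 (median −0.04).

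The genes with the largest positive differences rose in SJ2 too. Gohir.A05G316200 was 169, 200 and 151 in SJ2_rkn and 6.09e-09, 2.78 and 1.35 in SJ2_ctl, Gohir.D01G216800 63, 70.5 and 69.3 in SJ2_rkn and 0.205, 2.78 and 0 in SJ2_ctl, and the SJ2 responses of all 6 named genes lay between 3.45 and 6.90 (each called). Gohir.D07G183000, with opposite responses in WMJJ and NemX, was 29.1, 13.9 and 34 in SJ2_rkn and 0.207, 0.749 and 0.247 in SJ2_ctl, a response of 4.81. For these 7 genes SJ2 thus moved with WMJJ, and the NemX_ctl mean was the highest of the 3 control means. A high NemX_ctl and a low WMJJ_ctl both raise the difference that chose these genes, so their order is in part built in. The control levels of WMJJ and NemX were not called different for Gohir.D01G216800, Gohir.A11G036000 and Gohir.D11G039600 (adjusted p = 0.127, 0.599 and 0.0719), and were for the others.

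The 6 named genes with the largest negative differences divided in SJ2. Gohir.D02G099900 was 18.1, 14.6 and 24.4 in SJ2_rkn and 62.1, 68 and 65.3 in SJ2_ctl (SJ2 response −1.78), and Gohir.D11G008500 (−3.95) and Gohir.D13G055300 (−1.97) also fell. Gohir.A02G084100 was not called in SJ2, with a response of −0.38 (SE 0.29, adjusted p = 0.371) at a level of 9.7, 4.82 and 12.6 in SJ2_rkn and 9.71, 13.3 and 10.7 in SJ2_ctl. Gohir.A01G188100 (−0.11) was not called either, and Gohir.D09G154600 did not exceed 0.108 in any SJ2 library. The 3 abundant genes lower in WMJJ, Gohir.A05G225200, Gohir.A02G076500 and Gohir.A05G005600, had SJ2 responses of 0.31, 0.25 and 0.62 that were not called (adjusted p = 0.256, 0.356 and 0.0622). Among these, Gohir.A02G076500 was 106, 120 and 126 in SJ2_rkn and 96.3, 112 and 88.7 in SJ2_ctl, below every WMJJ_ctl and NemX library.

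A few genes went the other way in SJ2, and were singled out after their values were seen. Among the 490 genes higher in WMJJ, the 4 called downregulated in SJ2 were Gohir.A03G195200, described above, Gohir.A05G129700, Gohir.D03G161700 and Gohir.D03G161800. Gohir.D03G161700 was 16.3, 7.45 and 12.6 in WMJJ_rkn and 1.86, 1.1 and 1.52 in WMJJ_ctl, and 9.14, 10 and 9.67 in NemX_rkn and 10.1, 13.3 and 27.5 in NemX_ctl, but 12.4, 17.7 and 14 in SJ2_rkn and 81.5, 73.3 and 136 in SJ2_ctl. Its neighbour by identifier, Gohir.D03G161800, was 23.3, 10.7 and 23.9 in WMJJ_rkn and 6.31, 3.61 and 6 in WMJJ_ctl, and 2.35, 1.7 and 1.16 in NemX_rkn and 2.85, 4.73 and 4.13 in NemX_ctl, but 8.18, 8.21 and 7.62 in SJ2_rkn and 33.2, 29.6 and 53.9 in SJ2_ctl. Both rose in WMJJ and fell in SJ2 with no overlap of infested and control libraries, by 2.61 and 1.72 in WMJJ, against −2.64 and −2.16 in SJ2. Gohir.A05G129700 averaged 18 ± 3.52 in WMJJ_rkn and 5.34 ± 0.583 in WMJJ_ctl, against 4.18 ± 0.896 in NemX_rkn and 6.71 ± 0.939 in NemX_ctl, and 5.56 ± 1.07 in SJ2_rkn and 20.8 ± 6.45 in SJ2_ctl (SD, n = 3 each). The differences between WMJJ and NemX were 3.28 (SE 0.44, adjusted p = 0.000325) for Gohir.D03G161700, 2.70 (SE 0.43, adjusted p = 0.0011) for Gohir.D03G161800 and 2.28 (SE 0.32, adjusted p = 0.000405) for Gohir.A05G129700, and these 3 calls were kept whichever library was left out.

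Among the 194 genes lower in WMJJ, 5 were called upregulated in SJ2. Gohir.A10G079600 was low in WMJJ throughout, at 4.54, 3.46 and 4.36 in WMJJ_rkn and 4.93, 3.83 and 4.24 in WMJJ_ctl, while NemX was at 216, 220 and 230 in NemX_rkn and 105, 97 and 77.8 in NemX_ctl, and SJ2 averaged 151 ± 19.8 in SJ2_rkn and 75.5 ± 21.4 in SJ2_ctl (SD, n = 3 each). It rose in NemX and in SJ2, at levels that WMJJ did not reach in any library. Gohir.A10G169400 had a WMJJ response of −0.53 that was not called, and rose in NemX (2.29) and SJ2 (2.57). Gohir.A03G173000 fell in WMJJ, where it averaged 24.3 ± 4.49 in WMJJ_rkn and 72 ± 6.45 in WMJJ_ctl, was not called in NemX, with 225 ± 17.2 in NemX_rkn and 245 ± 10.1 in NemX_ctl, and rose in SJ2, with 98.3 ± 11 in SJ2_rkn and 17.7 ± 8.87 in SJ2_ctl (SD, n = 3 each). Gohir.A07G168800 likewise fell in WMJJ (−1.42) and rose in SJ2 (1.12), and Gohir.A02G034800 was called in SJ2 alone (1.86). All 5 differences were near the threshold (adjusted p between 0.00575 and 0.00993). The call of Gohir.A02G034800 and of Gohir.A03G173000 was lost on leaving out any library but WMJJ_rkn replicate 2, that of Gohir.A07G168800 any but WMJJ_rkn replicate 2 and WMJJ_ctl replicate 3, and those of Gohir.A10G079600 and Gohir.A10G169400 any but NemX_ctl replicate 1 and WMJJ_ctl replicate 2, with adjusted p up to 0.0311.

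The called genes were spread over all 26 chromosomes. By chromosome the share of tested genes called higher in WMJJ ran from 0.595% on A04 to 1.44% on A06, and the share called lower from 0.0737% on D04 to 0.837% on A02. The A subgenome held 233 genes higher and 102 lower in WMJJ among 23164 tested, and the D subgenome 257 and 92 among 23532. The study places the RKN resistance of NemX on chromosomes A11 and D11 and that of WMJJ on D02. A11 held 23 genes higher in WMJJ (0.962%) and 8 lower (0.334%), D11 28 (1.13%) and 12 (0.484%), and D02 13 (0.745%) and 11 (0.63%), shares that lie within the range of the other chromosomes. The largest difference on A11 was that of Gohir.A11G112800, on D11 that of Gohir.D11G039600 and on D02 that of Gohir.D02G099900, all given above.

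Some called genes were next to each other in the order of identifier numbers, an order that was not checked against a genome. The next tested gene was called in the same direction for 22 of the 490 genes higher in WMJJ (4.49%, against 1.05% over all tested genes) and for 4 of the 194 lower (2.06%, against 0.416%). The longest run was of 3 genes, Gohir.A01G200800, Gohir.A01G200850 and Gohir.A01G200900, with differences of 1.20, 1.35 and 1.27 and SJ2 responses of 2.41, 2.58 and 2.51. Gohir.D04G027100 and Gohir.D04G027200, both described above, formed another pair. On D11, Gohir.D11G310000 averaged 2.86 ± 0.808 in WMJJ_rkn and 23.5 ± 5.3 in WMJJ_ctl, against 7.11 ± 1.01 in NemX_rkn and 10.5 ± 3.2 in NemX_ctl, and Gohir.D11G310100 12.3 ± 3.75 in WMJJ_rkn and 43.9 ± 9.59 in WMJJ_ctl, against 30.7 ± 5.42 in NemX_rkn and 36.9 ± 6 in NemX_ctl (SD, n = 3 each). Both fell in WMJJ, with differences of −2.35 (SE 0.46, adjusted p = 0.00541) and −1.55 (SE 0.31, adjusted p = 0.00571), but the call of Gohir.D11G310000 was lost on leaving out any library except NemX_ctl replicate 2, NemX_rkn replicate 2, WMJJ_ctl replicate 3 and WMJJ_rkn replicate 2, and that of Gohir.D11G310100 any except those 4 and WMJJ_rkn replicate 1 (adjusted p up to 0.0213 and 0.0217). Neighbouring genes may be copies that share reads, and whether they were was not tested. Apart from Gohir.D04G027100, the neighbours given here were singled out after their values were seen.

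The study names a pair of TIR-NBS-LRR genes, a class of intracellular immune receptors, on A11 and D11 as candidates for NemX resistance. It took genes of these chromosomes that matched sequences from its mapped resistance region, and narrowed them by expression in these same libraries. Gohir.A11G297600 was 75.4, 90 and 54 in WMJJ_rkn and 92.2, 100 and 76 in WMJJ_ctl, against 108, 92.9 and 110 in NemX_rkn and 126, 115 and 93.4 in NemX_ctl. Infested and control libraries overlapped in both genotypes, and the difference of responses was −0.21 (SE 0.25, adjusted p = 0.767). Its level was not called different between the genotypes. WMJJ minus NemX was −0.32 in control roots (adjusted p = 0.263) and −0.53 in infested roots (adjusted p = 0.0403). Gohir.D11G312800 was 4.55, 4 and 3.25 in WMJJ_rkn and 5.29, 5.72 and 3.99 in WMJJ_ctl, against 20.7, 17.5 and 23.2 in NemX_rkn and 25.4, 33.6 and 27.4 in NemX_ctl. Every NemX library lay above every WMJJ library, by −2.42 on the log2 scale (WMJJ minus NemX) in control roots and −2.24 in infested roots, and the response difference was 0.18 (SE 0.27, adjusted p = 0.836). For this gene the genotypes thus differed in level and no difference in response was detected. In SJ2 the genes averaged 48.9 ± 1.71 and 8.8 ± 1.38 in SJ2_rkn and 45.7 ± 8.38 and 7.16 ± 0.353 in SJ2_ctl (SD, n = 3 each), and neither SJ2 response was called (0.11 and 0.27).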

How the data were processed

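Root RNA of 18 libraries was sequenced as paired-end reads. The authors checked the reads with FastQC 0.11.9, used Trimmomatic 0.39 for trimming and kallisto 0.46.1 for pseudo-alignment to the TM-1 UTx v2.1 genes of G. hirsutum and summed transcripts to genes with tximport. The deposited signal values were normalized by the authors, are not whole reads and keep no depth, and their normalization and gene filter are not given in the sources used here. By the methods of the study, 1 in 3 samples was prepared with another kit, and which ones is not given in the sources used here. The table was fitted with limma 3.58.1 (R 4.3.3) on log2(value + 0.5), with 6 group coefficients over 18 libraries and an intensity trend, after leaving out 7695 genes with a mean below 1. P-values were adjusted by Benjamini-Hochberg within each comparison over all 46813 genes, and a gene was called at an adjusted p below 0.01 if its log2 value exceeded 1 in either direction. With 3 libraries in a group left to 2, the spread is borrowed from the other groups. The labels call the 3 samples of a group biological replicates.

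Genes were named by a rule. In each direction it took the 6 called genes with the largest difference whose response was called, with no overlap of libraries, in at least 1 genotype, and the 3 with the highest mean over the 12 libraries. It added up to 4 with called responses of opposite sign, the largest on A11, D11 and D02, and the TIR-NBS-LRR genes. Genes outside the rule are marked as chosen after their values were seen. The comparison, the rule and the alternatives were chosen with earlier results of these data known. A RefSeq gene table matched 0 of the identifiers, so no gene names or sequences are given. Alternatives were other pseudocounts, filters, scalings, thresholds and variance models, a fit on the 12 libraries alone, a replicate block and leaving out each library. The 2 fits on the number of genes above 0 were added after the data were seen.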

Additional observations from a re-analysis of the deposited data

Results flagged for a closer look

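The responses of WMJJ and NemX to RKN differed by the interaction test of limma for 684 genes, and each gene below passed that test (adjusted p below 0.01 over all tested genes). Among the named genes with a higher response in WMJJ, the log2 difference was 5.33 for Gohir.A08G108900, 5.13 for Gohir.A11G112800, 5.06 for Gohir.D01G216800, 4.46 for Gohir.A11G036000, 4.41 for Gohir.A05G316200, 4.30 for Gohir.D11G039600, 2.75 for Gohir.D07G183000, 1.60 for Gohir.D11G026600, 1.57 for Gohir.D04G027100 and 1.09 for Gohir.D01G163400. Among those with a lower response in WMJJ, it was −3.69 for Gohir.A01G188100, −3.28 for Gohir.D02G099900, −3.05 for Gohir.D09G154600, −2.99 for Gohir.D11G008500, −2.92 for Gohir.D13G055300 and for Gohir.A02G084100, −2.23 for Gohir.A05G005600, −1.67 for Gohir.A02G076500 and −1.35 for Gohir.A05G225200. Gohir.D09G154600 is listed at 0 in all 6 NemX libraries, so its difference restates the decrease in WMJJ.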

How the results depend on the processing

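Against 684 calls (490 higher and 194 lower in WMJJ, 71.6% higher), an adjusted p below 0.05 gave 1629 (1021 and 608) and a fit with no intensity trend 315 (234 and 81). Leaving out 1 library in turn gave 296 to 878 (222 to 525 higher, 74 to 353 lower). Equal library totals gave 60.8% higher, quantile normalization 63.1% and the fit without WMJJ_rkn replicate 2 59.8%. The NemX response had 1164 calls at an adjusted p below 0.05, 376 with no trend and 252 to 632 with 1 library left out, against 578. The median SJ2 response of the genes higher in WMJJ was 1.37 at an adjusted p below 0.05, 1.96 in the fit on the 12 libraries alone and 1.58 to 1.91 with 1 library left out, against 1.64. A term for the replicate number gave 874 calls under the block (606 and 268). The numbers were not taken as pairs in the main fit. Same-numbered libraries correlated in their deviations at −0.224 to 0.442, above 0.1 in 6 of 18 pairs, and other pairs at −0.291 to 0.347. Of 12 libraries, 6 correlated best with their own number, so a link by number in part of the libraries is not excluded. The libraries with the most genes above 0, NemX_rkn replicate 1 and replicate 3 of the other groups, correlated with each other in all 6 pairs (0.193 to 0.442) and negatively with the rest in all 24 (−0.291 to −0.0723). Deviations from a group mean cancel within the group, so the negative values follow in part from the positive ones. By the read counts of the study, the libraries with the most genes above 0 were also the most deeply sequenced of their groups. A term for these libraries, chosen after seeing the data, gave 1210 calls (795 and 415). The other 2 libraries of each group alone gave 335 (219 and 116) with a median SJ2 response of 2.1. Among the calls, 171 were kept in all 27 settings, where a gene left out by the filter at a mean of at least 5 counted as lost. Of the named genes, 17 of 42 kept their side of the threshold in every setting that tested them. No called difference of a named gene was reversed in direction. The difference of Gohir.A11G297600, which was not called, ran from −0.38 to 0.03. With 0.1 as pseudocount Gohir.A05G316200 (adjusted p = 0.0104) and Gohir.D09G154600 (0.0454) lost their calls. The cause of these shifts was not tested. The values keep no depth, which limits what can be said of genes listed near 0.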
